A study of Gallus gallus with 6 samples.

Results

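Bone morphogenetic proteins (BMPs) are secreted ligands of the TGF-β superfamily. They bind pairs of type I and type II serine/threonine kinase receptors, which phosphorylate Smad1, Smad5 and Smad9, and these enter the nucleus with Smad4 to regulate transcription. In the neural tube, BMPs come from the roof plate and the overlying ectoderm and pattern dorsal progenitors. Among the best known targets of the pathway are the Id genes, whose products lack a DNA-binding domain and hold basic helix-loop-helix factors in inactive dimers, and the homeobox gene MSX1. BAMBI, a pseudoreceptor without a kinase domain, is both a target and an inhibitor of the pathway.

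Here 10 genes of this pathway were followed on Affymetrix arrays of sorted chick neural tube cells. They were the ligand genes BMP2, BMP4, BMP5 and BMP7, the inhibitor gene BAMBI and the target genes ID1, ID2, ID3, ID4 and MSX1. They were taken by name, with every probe set to which the array annotation gave only that symbol. All 10 had at least 1 probe set and together they had 21, out of 13009 genes and 38439 probe sets tested.

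The 6 arrays came from wild-type White-Leghorn chick embryos whose neural tubes were electroporated on embryonic day 3. Cells were taken 24 h afterwards, at 4 days of incubation. In 3 arrays (Tubb3::CAG:TcfEnR) the cells received Tubb3:Cre with CAG:LoxP·TcfEnR, and in the other 3 (Tubb3::CAG:control) Tubb3:Cre with CAG:LoxP·mGFP. TcfEnR fuses the DNA-binding HMG box of Tcf3 with the engrailed repressor and blocks Tcf-dependent transcription. Both groups thus carried Cre and GFP, which were released only where an enhancer of the TUBB3 gene was active, and each array measured GFP+ cells sorted from a separate pool of dissected neural tubes. The comparison asked which genes depend on Tcf-mediated transcription in differentiating neurons.

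Values are log2 RMA signals, and a difference of 1 is a 2-fold difference. A gene was said to fall or rise at an adjusted p of 0.05 in limma over all probe sets, and where a gene had several probe sets the one with the highest mean over the 6 arrays stood for it. The 5th percentile of the signal lay between 3.24 and 3.39, and values near it carry little information on the size of a fall. Pearson correlations between arrays across probe sets were 0.978 to 0.991 within groups and 0.888 to 0.917 between groups. TCF7L1, the gene of Tcf3, was at 9.04, 9.60 and 9.52 in control arrays and at 8.75, 8.98 and 8.58 in TcfEnR arrays, and whether its probe set reads the HMG box of the transgene is not given in the sources used here. Neuronal genes were bright in control arrays, with TUBB3 at 11.69, 11.51 and 10.76, but so were genes of dividing or undifferentiated progenitors, such as FABP7 at 11.51, 11.72 and 11.97, although the cells are labelled as post-mitotic.

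Of the 10 genes, 8 fell in Tubb3::CAG:TcfEnR cells and 0 rose (limma). The 8 were BMP5, BMP7, BAMBI, ID1, ID2, ID3, ID4 and MSX1, and their log2 fold changes ranged from −3.21 for BMP5 to −1.01 for ID1. The other two, BMP2 and BMP4, did not pass the test. BMP5, ID2 and ID4 fell past the 4-fold threshold of the study. ID2 was short of it with quantile normalization repeated (log2 fold change −1.86), with the 75th percentiles matched (−1.92) and as the mean of its probe sets (−1.58), and without control replicate 1 BAMBI passed it as well (−2.08). Among all 13009 genes, 32.6% fell and 25.0% rose, and 3.46% fell past 4-fold. Of the 7831 genes whose mean over the 6 arrays lay within the range of the 10 genes, 6.29 to 9.58, 36.5% fell. In each of the 8 genes every TcfEnR array was below every control array, a pattern shown by 37.3% of all genes. The median log2 fold change was −1.76 over the 10 genes and −0.09 over all genes. With quantile normalization repeated, 3269 genes fell and 3574 rose in place of 4237 and 3256, and with the 75th percentiles of the arrays matched 3049 fell and 4529 rose. These scalings moved the median of all genes to 0.03 and 0.12, and the 8 genes fell under both.

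**Figure D1:**
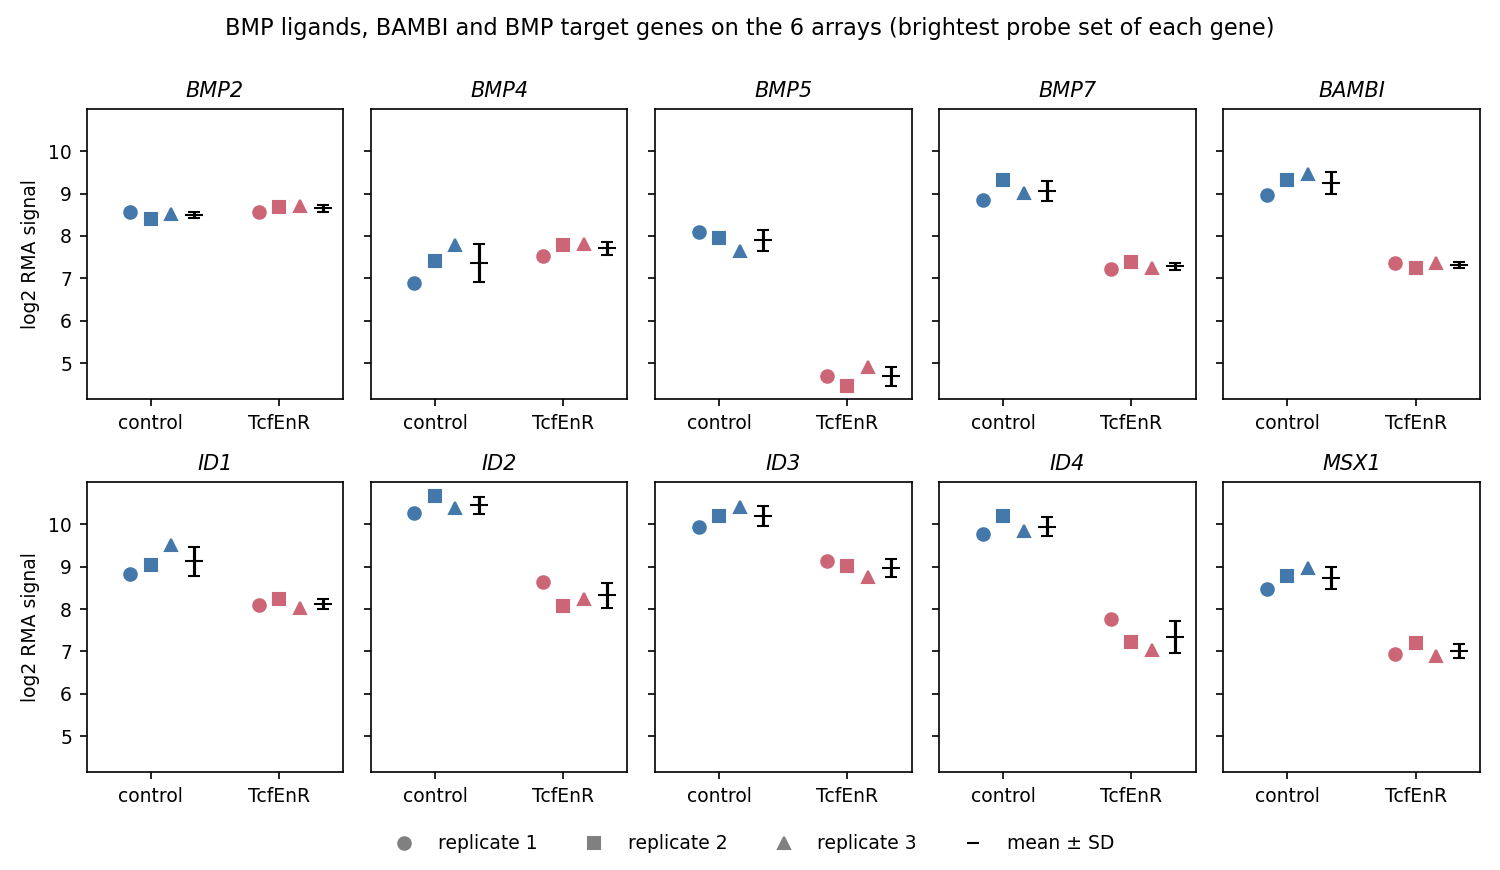
Log2 RMA signal of the brightest probe set of each of the 10 genes (y axis) on the 3 control arrays (blue) and the 3 TcfEnR arrays (red), with the mean ± SD of each group in black. TcfEnR arrays lie below all control arrays in 8 genes, whereas BMP2 and BMP4 do not fall.

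The ligand gene BMP5, known in mouse as a roof plate and ectodermal BMP, showed the deepest fall of the 10. It was at 8.10, 7.95 and 7.64 in control arrays and at 4.70, 4.46 and 4.90 in TcfEnR arrays. The lowest control array was 2.73 above the highest TcfEnR array, a gap wider than the range within either group. The log2 fold change was −3.21 (SE 0.17, adjusted p = 4.03e-06, limma), or 9.25-fold lower. The other two probe sets of BMP5 fell as well, with log2 fold changes of −3.62 (SE 0.23) and −2.24 (SE 0.20). The dimmer of them was at 3.66, 3.29 and 3.89 in TcfEnR arrays, close to the bottom of the signal, so that the size of its fall may be understated.

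BMP7 encodes a ligand that forms heterodimers with BMP2 or BMP4. Its brightest probe set was at 8.85, 9.33 and 9.01 in control arrays and at 7.23, 7.38 and 7.24 in TcfEnR arrays, with no overlap. The log2 fold change was −1.78 (SE 0.15, adjusted p = 3.21e-05, limma). The 3 probe sets of BMP7 did not move together. The second brightest, of the type _s_at, fell from 8.34 ± 0.35 (SD, n = 3) to 6.96 ± 0.16 (SD, n = 3), whereas the dimmest, of the type _a_at and derived in the annotation from the same cDNA, rose from 6.84 ± 0.25 (SD, n = 3) to 7.94 ± 0.29 (SD, n = 3), a log2 fold change of 1.10 with an SE of 0.19 (adjusted p = 0.00128, limma). In the naming of the manufacturer, probes of an _s_at set match several transcripts, and those of an _a_at set match alternative transcripts of 1 gene. The probe sequences were not used here, so that the transcripts behind the opposite calls are not known. Averaged over its probe sets, BMP7 was lower by less (log2 fold change −0.69, adjusted p = 0.0035, limma). Probe sets called in both directions occurred in 308 of the 7334 genes with several probe sets, or 4.20%.

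BMP2 was at 8.56, 8.41 and 8.52 in control arrays and at 8.57, 8.69 and 8.70 in TcfEnR arrays. The groups were 0.008 short of an overlap, and the difference of 0.16 (SE 0.12, 95% interval −0.13 to 0.44) did not pass the test (adjusted p = 0.318, limma). This interval leaves out a 2-fold fall. BMP2 was called higher with quantile normalization repeated (log2 fold change 0.39, adjusted p = 0.0267), with the 75th percentiles matched (0.37, adjusted p = 0.0317) and as the mean of its 3 probe sets (0.30, adjusted p = 0.0349). The dimmest of its probe sets was at 3.64, 3.49 and 3.70 in control arrays and at 4.31, 4.39 and 4.39 in TcfEnR arrays, a rise of 0.75 (SE 0.13, adjusted p = 0.00118, limma) near the bottom of the signal. The second brightest did not pass the test (−0.01, SE 0.15).

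BMP4, a ligand of the dorsal midline and the ectoderm, varied among control arrays, at 6.89, 7.41 and 7.78, and was at 7.52, 7.79 and 7.80 in TcfEnR arrays. The groups overlapped, and the log2 fold change of 0.35 (SE 0.22, 95% interval −0.14 to 0.84) did not pass the test (adjusted p = 0.206, limma). Without control replicate 3, the highest of its group, the gene was called higher (log2 fold change 0.56, adjusted p = 0.0323). A second probe set, of the type _s_at, rose by 0.53 (SE 0.17, adjusted p = 0.0244, limma), but this call was lost without control replicate 1, control replicate 2, TcfEnR replicate 2 or TcfEnR replicate 3 (adjusted p of 0.0598 to 0.0922). The third had a log2 fold change of 0.15 (SE 0.13). No probe set of BMP2 or BMP4 fell.

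**Figure D2:**
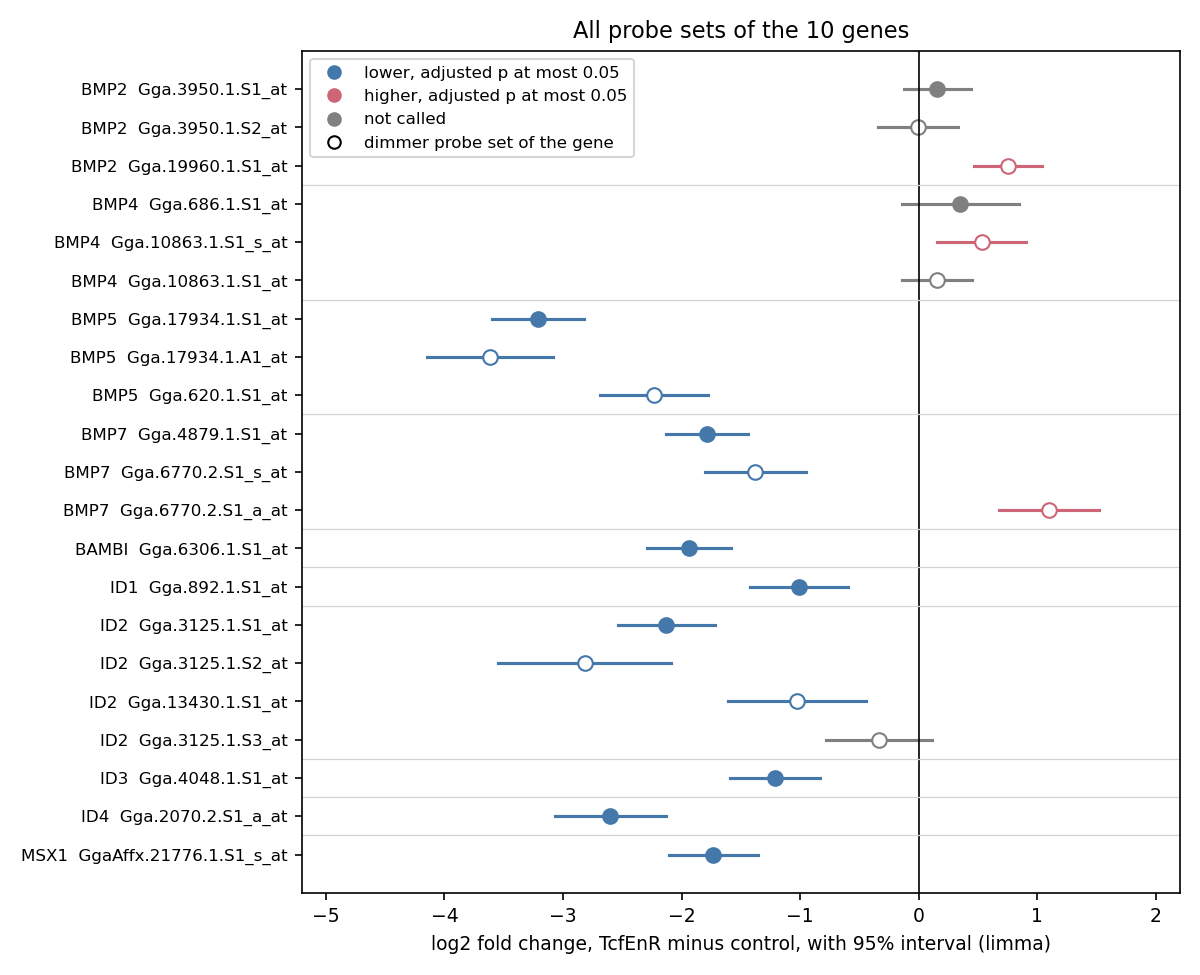
Log2 fold change, TcfEnR minus control, with its 95% interval (x axis) for all 21 probe sets of the 10 genes (y axis), filled for the brightest probe set of a gene and open for the others. Blue marks sets that fell, red marks those that rose and gray marks those not called. The intervals of all BMP5 sets lie below 0, and those of BMP7 lie on both sides of 0.

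The ligand genes thus moved by different amounts on the same arrays. Within-array differences between 2 genes, which a constant added to all log2 values of an array leaves as they are, were compared between groups for the 6 pairs of ligand genes and the 6 pairs of Id genes. The medians of the arrays were alike but their upper percentiles differed between groups, which is not such a constant. Pairs of genes of unlike brightness are thus not free of scaling. The log2 fold change of BMP5 was 3.37 below that of BMP2, 3.56 below that of BMP4 and 1.43 below that of BMP7. That of BMP7 was 1.94 below that of BMP2 and 2.13 below that of BMP4. In these 5 pairs the groups did not overlap, and each had p = 0.1, the smallest that 3 arrays against 3 allow (exact permutation test, two-sided, adjusted p = 0.12 over the 12 pairs), so that this test could not reach 0.05. Separate groups were common: among 13009 single genes every TcfEnR array was below every control array in 4846 and above in 3744. The share over all pairs of genes was not computed. BMP2 and BMP4 differed in their change by 0.19 (p = 0.8, exact permutation test, two-sided). In all pairs each gene was read by its brightest probe set. The dimmest probe set of BMP7 rose by 1.10, more than the 0.16 of BMP2 and the 0.35 of BMP4. The mean of the BMP7 probe sets had a log2 fold change of −0.69. The size and direction of the differences of BMP7 from BMP2 and BMP4 thus depend on the probe set.

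BAMBI fell with the target genes. It was at 8.97, 9.33 and 9.47 in control arrays and at 7.36, 7.23 and 7.37 in TcfEnR arrays. The TcfEnR arrays lay within 0.14 of each other and 1.60 below the lowest control array. The log2 fold change was −1.94 (SE 0.16, adjusted p = 2.43e-05, limma). MSX1, a homeobox gene of the roof plate and dorsal progenitors, was at 8.46, 8.78 and 8.97 in control arrays and at 6.94, 7.19 and 6.88 in TcfEnR arrays. Its log2 fold change was −1.73 (SE 0.17, adjusted p = 5.55e-05, limma), and in both genes the highest control array was replicate 3. Its relative MSX2 also fell (log2 fold change −1.89, SE 0.20).

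All 4 Id genes fell. By their brightest probe sets, ID4 was lower by the most and ID1 by the least. Another probe set of ID2 fell by more than that of ID4 (log2 fold change −2.82). ID4 was at 9.77, 10.20 and 9.85 in control arrays and at 7.76, 7.23 and 7.03 in TcfEnR arrays. ID2 was at 10.28, 10.68 and 10.40 in control arrays and at 8.65, 8.07 and 8.25 in TcfEnR arrays. In both genes the TcfEnR arrays were spread more widely than the control arrays, with replicate 1 the highest, and did not overlap them. The log2 fold change was −2.60 for ID4 (SE 0.21, adjusted p = 2.22e-05, limma) and −2.13 for ID2 (SE 0.18, adjusted p = 3.11e-05, limma).

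ID1 was at 8.84, 9.05 and 9.51 in control arrays and at 8.10, 8.25 and 8.02 in TcfEnR arrays. ID3 was at 9.95, 10.20 and 10.42 in control arrays and at 9.14, 9.03 and 8.75 in TcfEnR arrays. The groups were separate in both genes, by 0.59 for ID1, less than the range of 0.67 within the control arrays, and by 0.80 for ID3. The log2 fold change was −1.01 for ID1 (SE 0.18, adjusted p = 0.00176, limma) and −1.21 for ID3 (SE 0.17, adjusted p = 0.00041, limma). With quantile normalization repeated the values were −0.77 for ID1 and −0.91 for ID3, and both genes were still called lower.

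ID2 was read by 4 probe sets, which differed in size. The second brightest was at 10.01, 11.17 and 10.06 in control arrays and at 8.08, 7.37 and 7.33 in TcfEnR arrays (log2 fold change −2.82, SE 0.32), with control replicate 2 apart from the other two. The third fell less (log2 fold change −1.03, SE 0.26, adjusted p = 0.00913, limma), and the dimmest did not pass the test (−0.34, SE 0.20, 95% interval −0.78 to 0.11, adjusted p = 0.177). The other Id genes had 1 probe set each. Over all 21 probe sets of the 10 genes, 13 fell, 3 rose and 5 were not called, against 26.2% of all probe sets that fell and 26.5% that rose.

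Pairs of Id genes were compared by their brightest probe sets. The log2 fold change of ID4 was 1.59 below that of ID1, 1.38 below that of ID3 and 0.47 below that of ID2. That of ID2 was 1.12 below that of ID1 and 0.91 below that of ID3. The groups did not overlap in these 5 pairs (p = 0.1 for each, the smallest possible, exact permutation test, two-sided, adjusted p = 0.12). Here too, the share over all pairs of genes was not computed. ID1 and ID3 overlapped, with a difference of 0.21 (p = 0.2, exact permutation test, two-sided). The other probe sets of ID2 were not compared in this way. Their log2 fold changes ran from −2.82, deeper than the −2.60 of ID4, to −0.34, smaller in size than the −1.01 of ID1. The place of ID2 in this order thus depends on the probe set.

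The control pools differed among themselves, and the 10 genes did not share 1 order over them. Every gene is highest in 1 of the 3 arrays, and the shares of all genes highest in each array were not computed. The pan-neuronal gene STMN2 was at 12.40, 11.59 and 10.48 in control replicates 1, 2 and 3. The progenitor gene SOX2, named after its values were seen, was at 10.18, 10.26 and 11.22, whereas the progenitor marker CDH2 was flat at 10.44, 10.44 and 10.43. Of 13 pan-neuronal markers 11 were highest in replicate 1, and of 15 progenitor markers 11 were highest in replicate 3. BMP4, BAMBI, ID1, ID3 and MSX1 were highest in replicate 3 and lowest in replicate 1. BMP5 showed the opposite order, highest in replicate 1 and lowest in replicate 3. BMP7, ID2 and ID4 were highest in replicate 2, as were 8 of 15 roof plate and dorsal progenitor genes. The remaining 7 were highest in replicate 3, and the 15 genes had mean signals of 8.22, 8.60 and 8.61 in replicates 1, 2 and 3. The mean signals of mesenchyme, neural crest, surface ectoderm, endothelial, floor plate and stress genes were highest in replicate 2. Among these the 17 mesenchyme markers had the widest range, at 7.38, 8.32 and 6.59 in replicates 1, 2 and 3. BMP4 differed by 0.89 between control replicates 1 and 3, ID1 by 0.67, MSX1 by 0.51 and BAMBI by 0.50. In the 8 genes that fell, the range of the control arrays was smaller than the difference between groups. These genes were called for a difference that was large against the spread within groups, so this follows largely from the call. Whether differences in the make-up of the pools had a part in the falls was not tested.

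**Figure D3:**
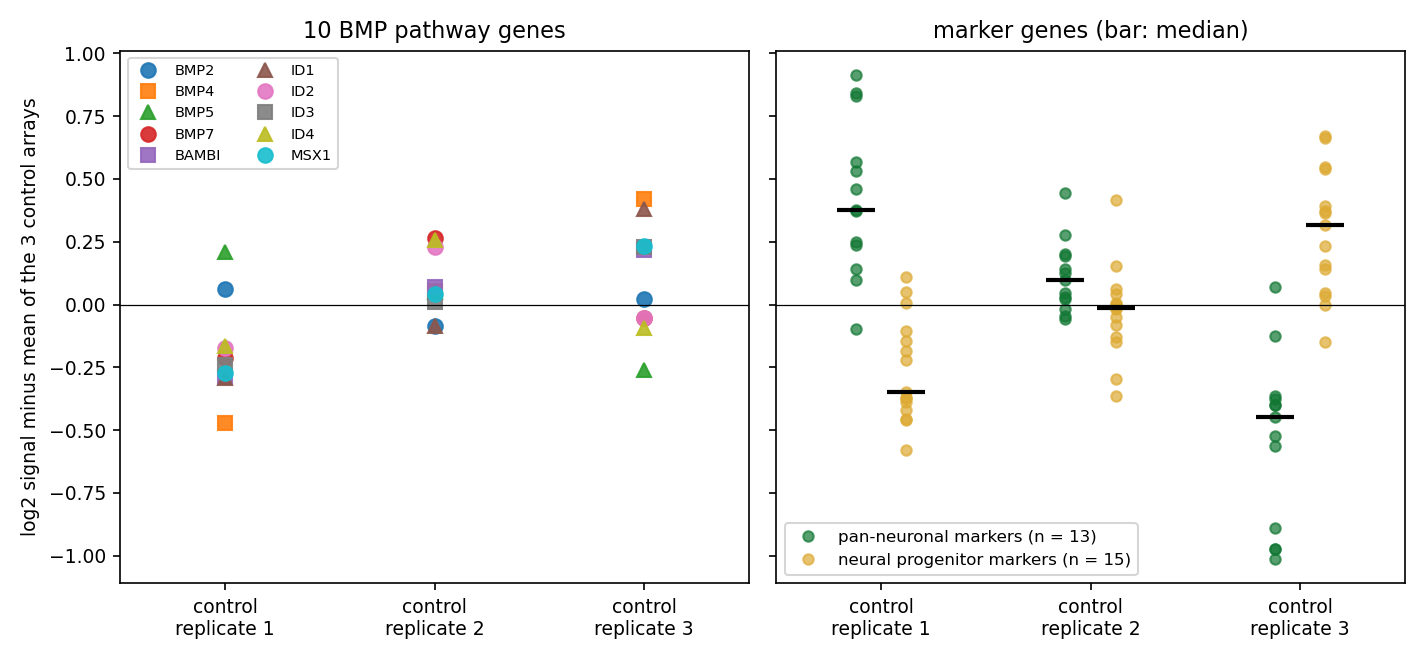
Log2 signal on each of the 3 control arrays minus the mean of the 3 (y axis), for the 10 genes (left) and for pan-neuronal (green) and progenitor (yellow) markers with their medians as bars (right). In replicate 3, BMP4, ID1, ID3, BAMBI, MSX1 and most progenitor markers lie above 0, and BMP5 and most pan-neuronal markers lie below it.

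Markers of several cell types moved in the same comparison, in which 32.6% of all genes fell and 25.0% rose. The mean signal of 13 pan-neuronal markers lay between 9.70 and 10.66 in the control group and between 7.83 and 7.92 in the TcfEnR group, and 11 of them fell (median log2 fold change −2.82), led by STMN2 (log2 fold change −4.27) and DCX (−4.01). That of 15 progenitor markers spanned 10.16 to 10.71 and 8.58 to 8.85, respectively, and 12 fell (median −2.02), led by FABP7 (−3.66) and CDH2 (−3.58). Of 8 neural crest markers 6 fell and 1 rose (median −1.74), with means of 8.81 to 8.96 and 7.26 to 7.37 and TFAP2B at −4.21 and PAX3 at −2.61. The Id genes are also expressed by endothelial and mesenchymal cells. Of 15 endothelial markers 1 fell and 6 rose (median 0.36), with means of 6.39 to 7.21 and 7.19 to 7.27. EGFL7 was at 1.89 and SOX18 at 1.36. Of 17 mesenchyme markers 4 fell, 1 rose and 12 were not called (median −0.72), with means of 6.59 to 8.32 and 6.72 to 7.17. POSTN was at −1.54 and PDGFRB at 2.38. Of 8 surface ectoderm markers 2 fell and 3 rose (median 0.22), with means of 7.63 to 8.18 and 7.96 to 8.20. KRT7 was at −1.95 and TFAP2C at 1.03.

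Of 12 blood markers 0 fell and 7 rose, with means of 7.55 to 8.001 and 7.69 to 9.48, HBE at 1.77 and CD74 at 1.49. Of 15 stress genes 2 fell and 9 rose, with means of 9.21 to 9.65 and 10.41 to 10.63, HSPB9 at 5.21 and HSPA2 at 4.11. Of 6 floor plate markers 2 fell and 1 rose, with means of 7.13 to 7.57 and 7.05 to 7.23, SPON1 at −1.32 and SHH at −0.91. The part of these shifts in the falls of the 10 genes was not tested. In pools of sorted cells, fewer cells of a type and less RNA per cell cannot be told apart. The TcfEnR array with the lowest blood mean was replicate 3, and without it 10 blood markers rose and the 8 genes fell. Leaving this array out widened the blood difference between groups, from a median log2 fold change of 0.97 to 1.33. Whether blood cells had a part in the falls was not tested. Without this array 0 surface ectoderm and 0 endothelial markers and 2 mesenchyme markers fell, and KRT7 (adjusted p = 0.0643, limma) and POSTN (adjusted p = 0.0568, limma) were no longer called.

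Other genes of the pathway moved in both directions. Of 70 further ligand, receptor, Smad, antagonist and target genes with a probe set, 29 fell, 15 rose and 26 were not called, with a median log2 fold change of −0.28. These are 41.4% and 21.4% of the 70, near the shares over all genes, and with the 75th percentiles matched 24 fell and 19 rose. Among 13 other BMP and GDF ligand genes, 3 fell and 6 rose (median 0.40). GDF10, also called BMP3B, fell from 8.89 ± 0.46 (SD, n = 3) to 4.75 ± 0.26 (SD, n = 3). Its log2 fold change of −4.14 (SE 0.24, adjusted p = 4.85e-06, limma) was deeper than that of any of the 10 genes. GDF2, the gene of BMP9, fell as well (log2 fold change −1.61, SE 0.29). GDF9, an oocyte factor in mammals, rose by 1.01 (SE 0.17) at a dim probe set, and its other probe set had a log2 fold change of −0.08 (SE 0.12). This other set lay below the 5th percentile of the signal, at 2.60, 2.56 and 2.55 in control arrays and at 2.49, 2.47 and 2.49 in TcfEnR arrays. A difference in depth between GDF10 and BMP5 was not tested.

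Among 11 receptor and coreceptor genes there were 8 that fell and 2 that rose (median −0.79), against 32.6% and 25.0% of all genes. The 8 were 7 with quantile normalization repeated, without ACVR2A, and 6 with the 75th percentiles matched, without ACVR2A and BMPR1A, both named after their values were seen. The deepest falls were those of NEO1, a receptor of RGM proteins, with −2.01 (SE 0.20), RGMA, a BMP coreceptor, with −1.89 (SE 0.16), and the type I receptor gene BMPR1B, with −1.64 (SE 0.20). BMPR1B was at 6.76, 7.36 and 7.43 in control arrays and at 5.78, 5.36 and 5.49 in TcfEnR arrays, without overlap. The type I receptor gene BMPR1A and the type II receptor gene BMPR2 were chosen after their values were seen. BMPR1A fell (log2 fold change −0.59, SE 0.15), but not with the 75th percentiles matched (−0.38), and BMPR2 fell (−1.19, SE 0.20). The 2 genes that rose were chosen in the same way. ENG, an endothelial coreceptor, rose by 0.53 (SE 0.14), and ACVR1B, a type I receptor of activin, by 0.85 (SE 0.14).

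Of 14 Smad genes and regulators 7 fell and 1 rose (median −0.48), against 32.6% and 25.0% of all genes. ZEB2, which encodes a Smad-binding repressor, showed a log2 fold change of −3.06 (SE 0.24), the co-repressor gene SKI one of −2.07 (SE 0.16) and YAP1, a Hippo effector gene whose product binds Smads, one of −1.23 (SE 0.17). A second probe set of ZEB2 fell (log2 fold change −2.38, SE 0.25), and the remaining 3, all near the bottom of the signal, were not called. Named after their values were seen, the BMP effector genes SMAD1 and SMAD5 fell, with log2 fold changes of −0.94 (SE 0.13) and −0.92 (SE 0.16). The remaining effector gene SMAD9 was not called (log2 fold change 0.20, SE 0.20, adjusted p = 0.432, limma), and its groups overlapped. The inhibitory Smad genes SMAD6 and SMAD7, also named after their values were seen, were not called. SMAD6 was at 9.40, 9.57 and 9.30 in control arrays and at 9.39, 9.37 and 9.55 in TcfEnR arrays, with a log2 fold change of 0.01 (SE 0.14, 95% interval −0.30 to 0.31). SMAD7 was at 8.17, 8.50 and 8.50 in control arrays and at 8.70, 8.75 and 8.73 in TcfEnR arrays, a difference of 0.34 (SE 0.14, adjusted p = 0.0695, limma) that was called higher with quantile normalization repeated (0.57) and with the 75th percentiles matched (0.55).

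Of 17 further targets, SMAD6 and SMAD7 included, 5 fell and 2 rose, or 29.4% and 11.8%, against 32.6% and 25.0% of all genes. Their median of −0.14 turned to 0.01 with quantile normalization repeated and to 0.07 with the 75th percentiles matched. Next to MSX2, the neural crest genes TFAP2A and SNAI2 fell, with log2 fold changes of −2.31 (SE 0.20) and −1.83 (SE 0.30). ATOH8 (−1.17, SE 0.15) and HEY1 (−0.62, SE 0.21), named after their values were seen, fell as well. HEY1 was not called with quantile normalization repeated (−0.33), with the 75th percentiles matched (−0.41) or without TcfEnR replicate 3 (−0.61). Of the 17 secreted antagonists and modulators, 6 fell and 4 rose. These are 35.3% and 23.5%, near the 32.6% and 25.0% of all genes. Their median of −0.19 turned to 0.03 with the 75th percentiles matched. CCN2, a matricellular protein gene, had a log2 fold change of −3.19 (SE 0.41), and CRIM1, whose product binds BMPs at the membrane, one of −2.37 (SE 0.29). SOST, the gene of the Wnt and BMP antagonist sclerostin, rose from 5.73 ± 0.25 (SD, n = 3) to 8.03 ± 0.32 (SD, n = 3), a difference of 2.30 (SE 0.20, adjusted p = 3.03e-05, limma), and its second probe set was also higher past 4-fold. NOG, the gene of the BMP antagonist noggin, named after its value was seen, did not pass the test (log2 fold change −0.35, SE 0.20, adjusted p = 0.164). Of the other antagonist genes, named in the same way, FST fell (−2.18, SE 0.21). CHRDL2 (1.02, SE 0.16), GREM1 (0.62, SE 0.23) and CHRD (0.37, SE 0.13) rose. The calls of GREM1 and CHRD were lost without TcfEnR replicate 3, and that of GREM1 also with quantile normalization repeated.

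**Figure D4:**
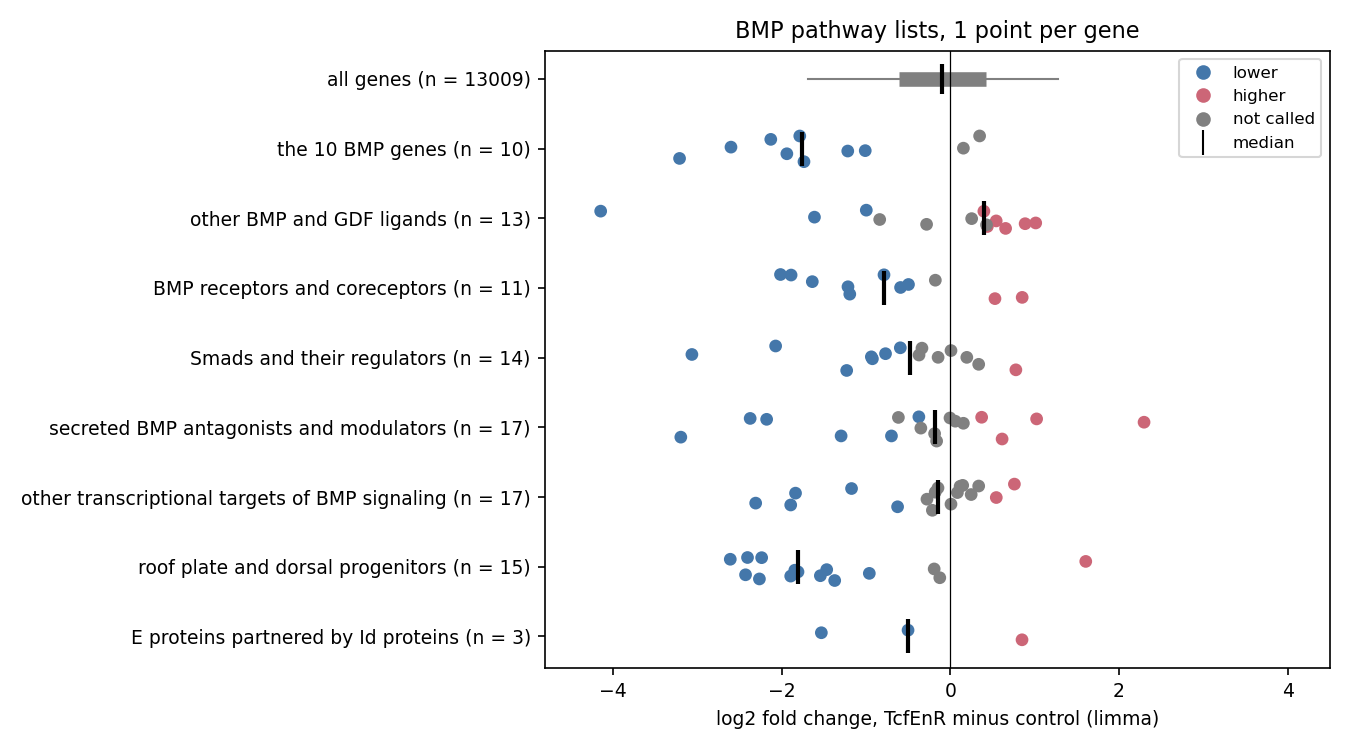
Log2 fold change, TcfEnR minus control (x axis), of each measured gene of the BMP pathway lists (points, blue for genes that fell, red for genes that rose, gray for genes not called) with the median of each list as a black bar. The top row gives all 13009 genes by their median, their 25th to 75th percentiles (thick bar) and their 5th to 95th percentiles (line). Of the lists drawn, the 10 genes and the roof plate and dorsal progenitor genes have the lowest medians, at −1.76 and −1.80, and pan-neuronal (−2.82), progenitor (−2.02) and neural crest markers (−1.74), which are not drawn, have medians of like size or lower.

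Genes of the roof plate and of dorsal progenitors, the domain in which BMPs act in the neural tube, fell with them, as did the neuronal and progenitor markers above. There were 15 such genes with a probe set, of which 12 fell and 1 rose (median −1.80), against 32.6% and 25.0% of all genes. The paired box gene PAX3 fell from 9.54 ± 0.19 (SD, n = 3) to 6.93 ± 0.07 (SD, n = 3), ZIC1 from 12.21 ± 0.10 (SD, n = 3) to 9.79 ± 0.37 (SD, n = 3) and the roof plate gene LMX1B from 8.24 ± 0.38 (SD, n = 3) to 5.84 ± 0.14 (SD, n = 3). Named after their values were seen, the roof plate ligand gene WNT3A had a log2 fold change of −2.24 (SE 0.14) and WNT1 one of −0.12 (SE 0.21, adjusted p = 0.641), whereas RSPO1, a secreted activator of Wnt signaling, rose by 1.61 (SE 0.20).

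The E protein genes, whose products are sequestered by Id proteins, did not move in 1 direction. TCF12 fell (log2 fold change −1.53, SE 0.13), and all of its 4 probe sets were called lower. TCF4, which despite its symbol is not a Tcf/Lef factor, rose by 0.85 (SE 0.13), and its other two probe sets rose by 1.23 (SE 0.19) and 1.72 (SE 0.23). TCF3, the gene of E2A and likewise not the Tcf3 of the fusion, fell (log2 fold change −0.50, SE 0.13, adjusted p = 0.0115, limma), but it was not called with quantile normalization repeated (−0.23) or with the 75th percentiles matched (−0.29). Its other two probe sets were not called either, at −0.29 (SE 0.15) and 0.35 (SE 0.15).

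The genes most alike to each of the 10 over the 6 arrays were MNAT1 for BMP2 (Pearson r = 0.994), SEMA3B for BMP4 (0.996), GFRA1 for BMP5 (0.9998), RFTN2 for BMP7 (0.999), C18orf21 for BAMBI (0.9998), PSIP1 for ID1 (0.998), FIGN for ID2 (0.999), TFDP2 for ID3 (0.999), CINP for ID4 (0.998) and LEUTX for MSX1 (0.999). The points share the contrast between groups, so that 754 to 1696 genes reached an r of 0.95 with each of the 8 genes that fell, against 55 for BMP2 and 40 for BMP4.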

How the data were processed

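GFP+ neural tube cells were measured on GeneChip Chicken Genome Arrays, 3 arrays per group, each of a separate pool. The authors deposited log2 values made by RMA, a method of background correction, quantile normalization and probe summary. The software, its version and its settings are not given in the sources used here. The deposited values were used without further transformation, and their upper percentiles differed between groups. Probe sets were named through the array annotation, and all 21 member probe sets carried the same symbol in RefSeq. The 96 Affymetrix controls were left out.

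TcfEnR was set against control with limma 3.58.1 in R 4.3.3 (lmFit, eBayes, Benjamini-Hochberg over 38439 probe sets, adjusted p of 0.05, 4-fold threshold at a log2 fold change of 2), after a check on simulated data. SE and 95% intervals are moderated. Exact permutation tests went through all 20 regroupings of the arrays in Python, and their p-values were adjusted (Benjamini-Hochberg) with scipy 1.17.1. The members and the 16 lists were chosen with earlier results of these data known, and lists got no test. Named were all members, up to 3 called genes of each pathway list and up to 2 of each marker list with the largest changes, TCF7L1 and the gene most alike to each member. TUBB3, whose enhancer drove Cre, was named outside this rule, as were the genes marked as named or chosen after their values were seen. Precision is limited by the number of arrays, and whether pools shared an electroporation day is not given in the sources used here.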

Additional observations from a re-analysis of the deposited data

How the results depend on the processing

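The 8 genes that fell kept their direction and an adjusted p of at most 0.05 (largest 0.00986, for ID1) in all 13 alternatives: replicate block, quantile normalization repeated, 75th percentiles matched, variance trend, array weights, dim probe sets left out, mean of probe sets, and each array left out. The number of the 10 genes that rose was 0, but 1 with quantile normalization repeated, with the 75th percentiles matched and with the mean of probe sets (BMP2 in each), and 0 to 1 when 1 array was left out (BMP4 without control replicate 3). Genes lower past 4-fold numbered 3, but 2 under the same 3 alternatives, which lost ID2, and 4 without control replicate 1. Probe sets of the 10 genes that rose numbered 3, but 5 with the 75th percentiles matched. They numbered 4 with quantile normalization repeated and without control replicate 3. With dim probe sets left out they numbered 2, as they did without control replicate 1, control replicate 2, TcfEnR replicate 2 or TcfEnR replicate 3. The second brightest probe set of BMP2, at −0.01, turned to 0.20 with the 75th percentiles matched and ranged from −0.073 to 0.12 with an array left out. The difference between BMP2 and BMP4, −0.19, ranged from −0.39 without control replicate 3 to 0.075 without control replicate 1. With the replicate block, 8 genes fell. For arrays of the same number, the correlations of their deviations from the group means were −0.04, 0.02 and −0.06. Whether such arrays were paired is not given in the sources used here. The cause of the changes between alternatives was not tested. Probe sets removed as dim have no value in that alternative.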
